A study of Homo sapiens with 9 samples.

Results

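The 229 genes described here are the protein-coding genes of human chromosome 19 whose symbol is ZNF followed by a number and that the authors listed in at least 1 of their 2 comparison tables. Those tables list 25108 genes in all, and 225 of the 229 members stand in both. The labels describe THP-1 as a human acute myeloid leukaemia line carrying the MLL-AF9 fusion. The cells received lentivirus made in 293T cells, were selected with puromycin and were harvested for polyA RNA 48 h after spinoculation. 3 libraries each came from cells with shRNA-143 against NFATC2, cells with shRNA-146 against NFATC2 and cells with a non-targeting control shRNA. NFATC2 is a transcription factor that calcium and calcineurin signalling sends to the nucleus. The series calls the replicates biological, but nothing in the labels places them in separate cultures, so p-values measure a spread between libraries that may be technical.

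C2H2 zinc finger proteins bind DNA through tandem fingers, each a short fold held by a zinc ion between cysteines and histidines, and each finger reads a few bases. Most chromosome 19 members belong to the KRAB zinc finger family, which grew by repeated tandem duplication in primate evolution. The KRAB domain binds TRIM28 (KAP1), which brings the histone methyltransferase SETDB1 and heterochromatin proteins to the bound site, often a transposable element.

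A KRAB A-box was found in 191 of the 229 members and was not found in 37. It could not be looked for in ZNF625-ZNF20, which has no complete coding sequence in GENCODE 29. ZNF473 scored highest of the 37, at 6.8 bits, under the threshold of 25. The lowest score among the 191 was 69.7 bits. The 37 are called members without KRAB below, though a divergent domain could have been missed. The number of C2H2 fingers per protein had a median of 12 and ran up to 31, and was 13 in the KRAB members against 9 in those without KRAB. The classes also differed in base composition. The median GC content of the exons was 43.8% in KRAB members and 61.5% in members without KRAB, and 23 of the 37 members without KRAB exceeded 55% GC, against 1 of the 191 with KRAB. When members within 500 kb of each other were joined, they fell into 21 clusters on chromosome 19 (hg38). The largest were 42 members at 57191500 to 58481230, 37 at 51571298 to 53580269, 26 at 36182060 to 37817300 and 25 at 11483427 to 12640098. The 14 members between 55476332 and 56626481 formed a GC-rich cluster with a median of 64.5% GC among its 13 tested genes.

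The repeated unit is shown for the 5 members that pass a test below, because it is the sequence that makes these genes alike. Each line is the first finger of the canonical spacing in the GENCODE 29 coding sequence, on the coding strand, and capitals mark the codons of the linker that starts after the finger's last histidine.
ZNF468: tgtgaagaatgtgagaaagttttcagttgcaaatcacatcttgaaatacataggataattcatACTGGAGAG
ZNF100: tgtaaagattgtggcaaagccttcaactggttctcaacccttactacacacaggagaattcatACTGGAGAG
ZNF772: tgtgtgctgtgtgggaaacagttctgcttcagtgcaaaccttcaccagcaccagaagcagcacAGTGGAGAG
ZNF776: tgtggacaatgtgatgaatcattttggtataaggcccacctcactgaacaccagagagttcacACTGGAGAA
ZNF460: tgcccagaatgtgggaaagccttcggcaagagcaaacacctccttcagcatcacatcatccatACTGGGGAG
Members also share sequence with other genes. Of the 229 members, 169 share at least one 75-base stretch with another gene and 52 share over 10% of their exonic sequence, while 128 overlap the exons of another gene and 58 do so over more than 10% of their length. The sources used here do not say how reads in such places were assigned, so the counts of those members are uncertain.

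Each library held between 40047459 and 44669709 counted reads. NFATC2 itself stood at 1.49, 7.40 and 6.95 CPM (read counts scaled to the TMM-adjusted library size) in shRNA-143 cells, at 2.59, 6.71 and 9.43 CPM in shRNA-146 cells and at 12.7, 27.6 and 27.4 CPM in control cells, so both knockdown groups lay below every control library. Averaged over both shRNAs, its log2 change against control was −2.12 ± 0.19 (SE) with the replicate number as a block (edgeR, adjusted p = 0.000575) and −1.97 ± 0.51 without it (adjusted p = 0.325). Of 12 myeloid markers, 11 exceeded 1 CPM in at least 1 library, and their summed level was 2201 to 2812 CPM in shRNA-143 cells, 2772 to 3024 CPM in shRNA-146 cells and 2723 to 4281 CPM in control cells. With the block, 2 of the 12 fell in at least 1 comparison with control and 0 rose. Of all genes, 1.57% were lower for shRNA-143, 1.96% for shRNA-146 and 2.75% for the mean of both. The median log2 change of the 12 was above 0 in these comparisons, at 0.09, 0.11 and 0.11. CSF1R and ITGAM had log2 changes of 0.57 and 0.68 in shRNA-146 cells (edgeR with the block, adjusted p = 0.0503 and 0.105). In shRNA-143 cells they had 0.15 and −0.24. MPO, a neutrophil granule enzyme, had 23.2, 41.0 and 60.6 CPM in shRNA-143 cells, 22.2, 30.5 and 54.5 CPM in shRNA-146 cells and 38.1, 61.3 and 86.9 CPM in control cells, a log2 change of −0.60 for shRNA-143 (adjusted p = 0.0372) and −0.82 for shRNA-146 (adjusted p = 0.0107). S100A9, a calcium-binding protein of myeloid cells, averaged 1341 ± 213 CPM in shRNA-143 cells, 1712 ± 102 CPM in shRNA-146 cells and 2517 ± 686 CPM in control cells (SD, n = 3), a log2 change of −0.89 for shRNA-143 (adjusted p = 0.0190) and −0.52 for shRNA-146 (adjusted p = 0.0898). The T cell markers CD3E, CD3D and CD2 were at 0 in all 9 libraries. Of the 5 epithelial and 293T markers, 4 were under 1 CPM in every library, 1 of them at 0, and the list summed to 3.25 to 3.78 CPM in shRNA-143, 2.21 to 2.74 CPM in shRNA-146 and 3.94 to 4.87 CPM in control libraries. KRT8, a keratin and the only one of them tested, had a log2 change of −0.85 in shRNA-146 cells with the block (adjusted p = 0.0380). The part of these marker changes in the results was not tested. The 3 B cell, 3 erythroid and 3 fibroblast markers reached at most 2.62, 0.0218 and 3.01 CPM in any library.

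The 3 libraries numbered 1 stood apart from the others. Among the 203 members that passed the filter on low counts, 85 (41.9%) were lower in the library numbered 1 than in the mean of the other two in all 3 groups, against 34.3% of all 14975 genes tested, and 22 (10.8%) were higher, against 34.0%. The lower share was 71.9% of the 32 tested members without KRAB and 36.3% of the 171 with KRAB, the latter near that of all genes. The higher share was 3.1% and 12.3%. Which of the libraries numbered 1 was most distant depended on the class of genes. In replicate 1 of shRNA-146 the median log2 deviation from the mean of all libraries was −0.56 for the 32 tested members without KRAB and −0.55 for 765 other chromosome 19 coding genes, but 0.00 for the 171 tested KRAB members. For the KRAB members the most distant was replicate 1 of shRNA-143, at −0.24, and for all 203 members it was that library too, at −0.25. ZNF428 was far past its class median in replicate 1 of shRNA-146, at 5.15 CPM, against 27.1 and 34.8 CPM in the other shRNA-146 libraries. Counts below are given with the replicate number as a block and without these libraries where this changes them.

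**Figure D1:**
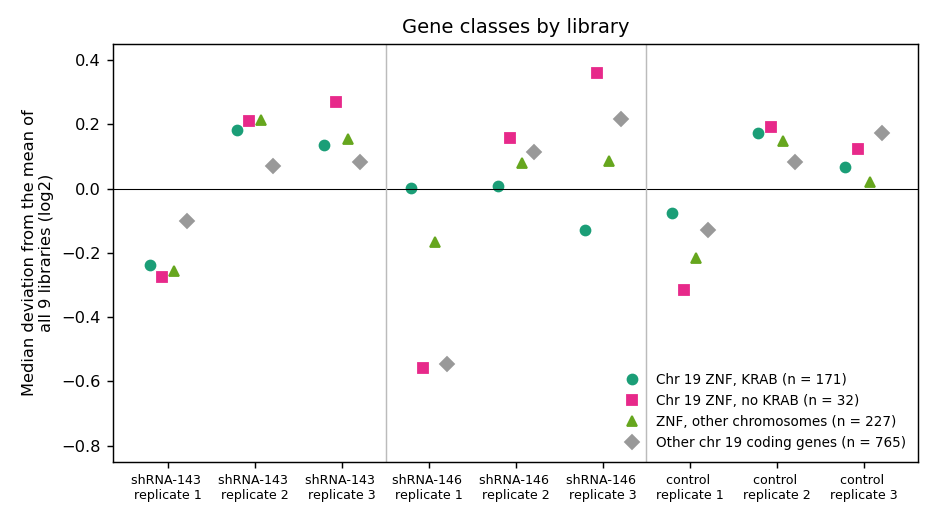
Median deviation (log2) of 4 gene classes from their mean over all 9 libraries, by library. In shRNA-146 replicate 1 the members without KRAB (−0.56) and the other chromosome 19 coding genes (−0.55) sit far below 0 while the KRAB members sit at 0.00, and in control replicate 1 and shRNA-143 replicate 1 both member classes are below 0.

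In control cells the chromosome 19 ZNF genes were expressed at low levels. The median member had 0.836 CPM per kilobase of exon, against 1.17 for the ZNF genes of other chromosomes and 1.79 for all listed protein-coding genes. Members with KRAB had a median of 0.747 and a maximum of 6.67 CPM per kilobase, and members without KRAB had a median of 1.79 and a maximum of 21.2. A read was found in every library for all but 22 members, and 3 members had none in any control library. The 26 members that failed the filter, 20 of them with KRAB, had between 2 and 63 counts summed over the 9 libraries. They include ZNF320, ZNF154, ZNF471, ZNF536 and ZNF541. ZNF320 shares 73.0% of its 75-base stretches with other genes, so its low count is uncertain.

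The most abundant members were mostly without KRAB. ZNF787 led with 21.2 ± 3.8 CPM per kilobase in control cells (SD, n = 3), followed by ZNF428 at 19.9 ± 3.9, ZNF146 at 18.3 ± 5.3 and ZNF581 at 15.03 ± 1.2. ZNF296 followed at 10.5 ± 3.2, ZNF574 at 7.61 ± 2.06, ZNF100 at 6.67 ± 0.76 and ZNF524 at 6.47 ± 1.34. The SDs of each pair of neighbours in this order overlap except for ZNF581 and ZNF296. ZNF146, known as OZF and made almost wholly of fingers, is the AT-rich exception among the leading members without KRAB, at 40.9% GC, and ZNF100 is the KRAB member with the highest level.

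**Figure D2:**
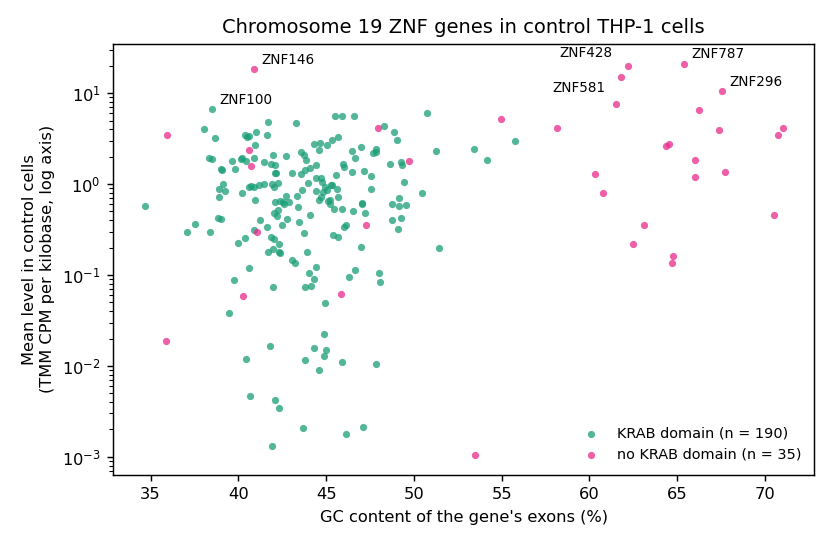
Mean level in the 3 control libraries (TMM CPM per kilobase, log axis) against exonic GC content (%) for the 190 KRAB members and 35 members without KRAB that have a control count. KRAB members gather near 43.8% GC and stay at or under 6.67 CPM per kilobase, while most members at the top of the plot have no KRAB and over 55% GC.

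Among members with described roles, ZNF93 and ZNF91, which silence LINE-1 and SVA retrotransposons in human cells, stood at 4.66 ± 0.27 and 0.836 ± 0.157 CPM per kilobase in control cells (SD, n = 3). ZNF274, which recruits SETDB1 to the finger-coding exons of other ZNF genes, stood at 2.46 ± 0.59. ZNF473, a component of the machinery that processes histone mRNA ends, stood at 1.79 ± 0.30. ZNF350, a partner of BRCA1, ZNF224, a cofactor of WT1, and ZNF675, an inhibitor of TRAF6 signalling, stood at 0.978 ± 0.225, 0.747 ± 0.066 and 0.922 ± 0.152. ZNF224 shares 39.1% of its 75-base stretches with AC021092.1, so its value is uncertain. ZNF175, described as a repressor of HIV transcription in macrophages, stood at 0.713 ± 0.065. ZNF587 and ZNF417, closely related repressors of endogenous retroviruses, stood at 0.335 ± 0.175 and 0.426 ± 0.125, and ZNF417 shares 30.4% of its 75-base stretches with other genes, so these values are uncertain. ZNF93 and ZNF274 lay above the members' upper quartile of 1.89 CPM per kilobase, and the others in this group below it.

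The first question was whether knockdown of NFATC2 changed the members. Without the block, none of the 203 tested members passed an adjusted p of 0.05 in any comparison (edgeR quasi-likelihood test, Benjamini-Hochberg over all genes). Few genes of any kind did: percent called over all 14975 genes was 0.0467% for shRNA-143 against control, 0.0334% for shRNA-146 against control, 0.0334% for the mean of both against control and 0.0467% for shRNA-146 against shRNA-143. At an unadjusted p under 0.05 there were 4, 9, 6 and 6 members in these comparisons, against 6.8%, 8.81%, 9.34% and 3.75% of all genes. DESeq2 called 0, 2, 0 and 2 members, all lower, against 1.01%, 1.08%, 1.36% and 0.594% of all genes, and limma-voom called 0 in each, against 0.0401%, 0.0267%, 0.0334% and 0.0534%. ZNF468 in shRNA-146 cells had an edgeR adjusted p of 0.212 in this fit.

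Libraries of the same replicate number deviated together, but the lowest such r was 0.252, and r between different numbers reached 0.535. What a number stands for is not given. With the number as a block, 5 members passed in at least 1 comparison. Each of them is a KRAB gene, as are 171 of the 203 tested members. For shRNA-146 against control, 4 members fell and 0 rose, against 1.96% of all genes lower and 2.46% higher. For shRNA-143 against control, 1 member rose and 0 fell, against 1.6% of all genes higher and 1.57% lower. For the mean of both shRNAs, 1 rose and 2 fell, against 2.98% higher and 2.75% lower. For shRNA-146 against shRNA-143, 2 were lower and 0 higher, against 0.421% lower and 0.775% higher. In the comparisons with control, these counts are near or under the shares of all genes. For shRNA-146 against shRNA-143, 2 of 203 is 0.985%, above the 0.421% of all genes lower but under the 1.2% called in either direction. The comparisons with control share its libraries and are not independent of each other.

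ZNF468, a KRAB gene with 11 fingers at 52838008 to 52890375 on the minus strand, had 14.4, 20.2 and 17.7 CPM in shRNA-143 cells, 9.95, 10.4 and 7.30 CPM in shRNA-146 cells and 17.2, 22.0 and 20.2 CPM in control cells. All shRNA-146 libraries lay below all control and all shRNA-143 libraries, while shRNA-143 and control overlapped. With the block it fell 2.15-fold in shRNA-146 cells (log2 −1.10 ± 0.17 (SE), adjusted p = 0.00877) and had a log2 change of −0.19 ± 0.17 in shRNA-143 cells (adjusted p = 0.566). The difference between the shRNAs was −0.92 ± 0.17 (adjusted p = 0.0305), and the mean of both against control was −0.64 ± 0.14 (adjusted p = 0.0302). Its exons overlap those of other genes over 53.3% of their length, namely ZNF320, AC010487.3 and ZNF28, so its count is uncertain. In bulk RNA, fewer cells with a transcript and less of it per cell cannot be told apart. ZNF320 stayed at or under 0.21 CPM in each library and AC010487.3 was at 0. ZNF468 accounts for 68.1% of the 75-base stretches of ZNF320, so the low count of ZNF320 is uncertain too. ZNF28, a KRAB gene with 15 fingers, had 13.5, 26.9 and 22.6 CPM in shRNA-143 cells, 17.5, 16.9 and 12.6 CPM in shRNA-146 cells and 18.8, 28.1 and 20.5 CPM in control cells. For ZNF28 the shRNA-146 libraries were below control without overlap and the log2 change was −0.49 ± 0.21 (adjusted p = 0.190 with the block).

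ZNF100, the most abundant KRAB member, had 28.4, 37.6 and 37.0 CPM in shRNA-143 cells, 27.5, 21.6 and 15.3 CPM in shRNA-146 cells and 38.9, 48.9 and 44.4 CPM in control cells. Both knockdown groups lay below every control library. With the block it fell 2.06-fold in shRNA-146 cells (log2 −1.04 ± 0.21, adjusted p = 0.0237) and had a log2 change of −0.36 ± 0.20 in shRNA-143 cells (adjusted p = 0.348). The mean of both against control was −0.70 ± 0.17 (adjusted p = 0.0432). The shRNAs differed by −0.69 ± 0.21, which missed the threshold (adjusted p = 0.207).

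ZNF772 and ZNF776 lie in the cluster nearest the end of the long arm. ZNF772 had 20.8, 14.03 and 10.8 CPM in shRNA-143 cells, 14.8, 9.31 and 6.84 CPM in shRNA-146 cells and 19.3, 16.8 and 13.4 CPM in control cells. The groups overlap, but within each replicate number the shRNA-146 library was below control. Its log2 change in shRNA-146 cells was −0.73 ± 0.16 with the block (adjusted p = 0.0328) and −0.16 ± 0.16 in shRNA-143 cells (adjusted p = 0.606). ZNF776 had 10.5, 12.2 and 12.1 CPM in shRNA-143 cells, 6.80, 6.48 and 6.13 CPM in shRNA-146 cells and 10.02, 11.2 and 9.20 CPM in control cells. The shRNA-146 libraries lay within a narrow range below all the others, while shRNA-143 and control overlapped. ZNF776 fell by 0.65 ± 0.16 on the log2 scale in shRNA-146 cells (adjusted p = 0.0470), and shRNA-146 was 1.80-fold lower than shRNA-143 (log2 −0.85 ± 0.16, adjusted p = 0.0319).

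ZNF460, in the same cluster, was the member that rose. It had 6.20, 5.20 and 2.40 CPM in shRNA-143 cells, 3.30, 4.04 and 1.86 CPM in shRNA-146 cells and 2.37, 2.71 and 1.22 CPM in control cells. The groups overlap because every library numbered 3 is low, but within each number both knockdown libraries exceeded control. With the block it rose 2.16-fold in shRNA-143 cells (log2 1.11 ± 0.21, adjusted p = 0.0217), had a log2 change of 0.55 ± 0.21 in shRNA-146 cells (adjusted p = 0.142), and the mean of both against control was 0.83 ± 0.19 (adjusted p = 0.0304). These counts are small, 45 to 251 reads per library. The exons of ZNF460 overlap AC005261.5 over 13.9% of their length, and those of ZNF776 overlap AC003006.1 over 11.5%, so both counts carry that uncertainty.

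**Figure D3:**
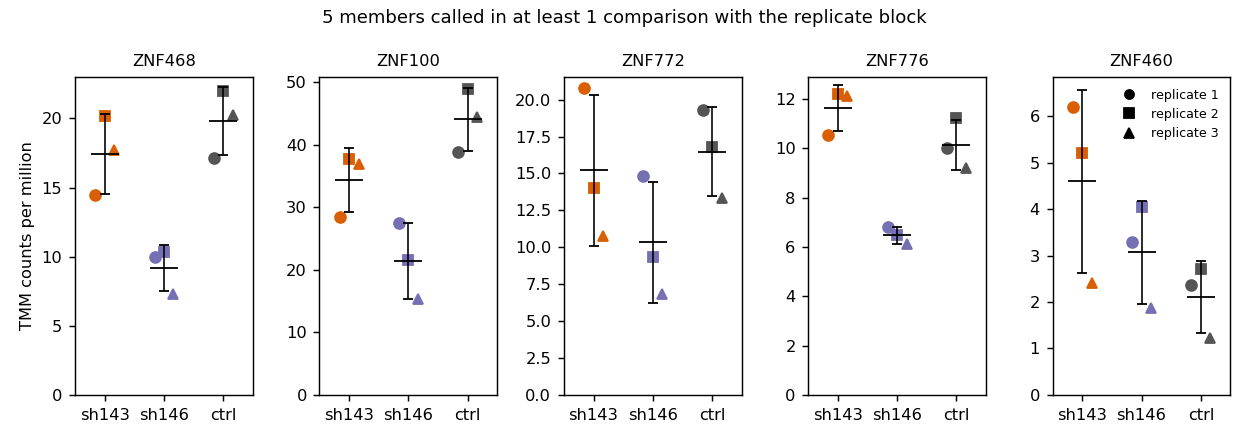
TMM-normalised CPM in each library for the 5 members that pass with the block, with the mean and SD of each group (n = 3) in black; sh143, sh146 and ctrl are shRNA-143, shRNA-146 and control, and the marker shape gives the replicate number. ZNF468 and ZNF776 are lowest in all 3 shRNA-146 libraries, and for ZNF772 and ZNF460 libraries of the same number move together.

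None of these calls held in every fit that left out 1 of the 9 libraries with the block. ZNF468 in shRNA-146 cells held in 7 of 9, with a highest adjusted p of 0.0735, and ZNF100 in 5 of 9, with a highest of 0.137. ZNF772 held in 3 of 9 and ZNF776 in 1 of 9 (highest adjusted p 0.164 and 0.198), and ZNF460 in shRNA-143 cells held in 3 of 9 (highest 0.126). The differences between the shRNAs held in 3 of 9 for ZNF468 and 2 of 9 for ZNF776. In the mean of both shRNAs, ZNF468, ZNF100 and ZNF460 each held in 2 of 9. No direction reversed. The authors' deposited table lists 0 members at an adjusted p under 0.05 for shRNA-143, and 1 for shRNA-146, which is ZNF468 at a log2 fold change of −1.10 (adjusted p = 0.0328).

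The counts rose when shRNA-146 replicate 1 was left out. Without shRNA-146 replicate 1, and with the block, 18 members fell and 0 rose in shRNA-146 cells, which is 8.87% of the 203 members, against 4.91% of all genes lower and 6.47% higher. Of these 18 members, 17 carry KRAB, as do 171 of the 203 tested members. All 4 that fell with 9 libraries are among the 18. For shRNA-143 the counts were 3 higher and 4 lower, against 7.12% and 6.57% of all genes, and for the mean of both shRNAs 3 higher and 23 lower, against 10.2% and 9.87%. For shRNA-146 against shRNA-143, 5 members were lower and 0 higher, against 0.985% and 1.26%. Without shRNA-143 replicate 1 the counts did not rise. With the block they were 0 for shRNA-143, 3 for shRNA-146, 0 for the mean of both and 0 for shRNA-146 against shRNA-143, against 0.742%, 3.67%, 4.21% and 0.202% of all genes. Leaving out all 3 libraries numbered 1, an alternative chosen after seeing the data that keeps 2 libraries a group, gave 1 higher and 17 lower for shRNA-146 (all genes 7.69% and 6.24%) and 0 higher and 6 lower for shRNA-146 against shRNA-143 (1.19% and 0.917%). It gave 3 higher and 3 lower for shRNA-143 (5.6% and 4.8%) and 4 higher and 11 lower for the mean of both (9.86% and 9.29%).

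Some KRAB members passed for both shRNAs with the block when libraries were left out, but not with all 9. Without shRNA-146 replicate 1 these were ZNF614 and ZNF256, both lower. Without the 3 libraries numbered 1 they were ZNF614, ZNF548 and ZNF738, which were lower, and ZNF587, which was higher. Over all genes, 13.7% passed for shRNA-143 and 11.4% for shRNA-146 in the first of these fits, and 10.4% and 13.9% in the second. The share of all genes passing for both was not counted. Both comparisons use the same control libraries, so passing in both is not independent support. ZNF614 is described here and was named after its values were seen. It had 11.4, 17.7 and 16.01 CPM in shRNA-143 cells, 25.5, 17.5 and 11.9 CPM in shRNA-146 cells and 25.2, 30.8 and 28.8 CPM in control cells. All shRNA-143 libraries were below control, and of the shRNA-146 libraries replicate 1 alone overlapped the control range. With 9 libraries and the block its log2 changes were −0.91 ± 0.25 in shRNA-143 cells and −0.64 ± 0.26 in shRNA-146 cells (adjusted p = 0.0829 and 0.160). Without shRNA-146 replicate 1 they were −0.93 ± 0.13 and −1.09 ± 0.16 (adjusted p = 0.00213 and 0.00312). The library left out is the one that overlapped control, so these lower p-values add no support for a change of ZNF614.

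**Figure D4:**
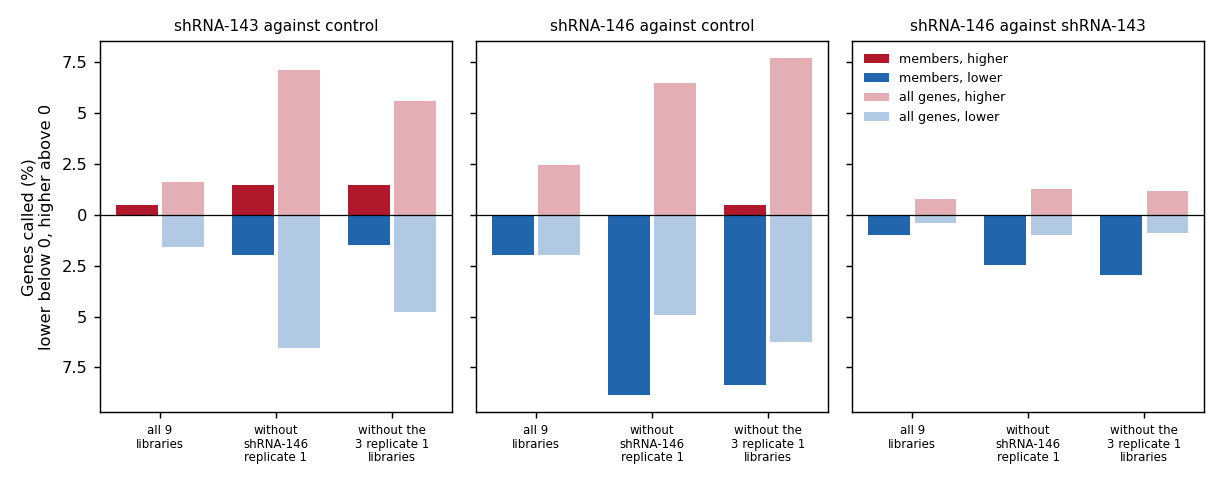
Share of members (full colour) and of all genes tested (pale) called higher (above 0) or lower (below 0) at an adjusted p under 0.05 with the replicate block, with all 9 libraries and with libraries left out. In shRNA-146 against control the lower members go to 8.87% without shRNA-146 replicate 1, beside 4.91% of all genes.

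Shifts of the family as a whole were small. The median log2 change of the 203 members was −0.02 for shRNA-143, −0.08 for shRNA-146, −0.05 for the mean of both and −0.08 for shRNA-146 against shRNA-143, and the median over all genes was 0.02, 0.05, 0.03 and 0.01. The sign depends on the scaling. With library size alone the members' medians against control were 0.08, 0.05 and 0.07, above 0, and that scaling moved the medians of all genes to 0.12, 0.19 and 0.15, still above the members'. ZNF genes of other chromosomes had medians of 0.12, 0.10, 0.12 and −0.03, and other coding genes of chromosome 19 had 0.01, −0.06, −0.04 and −0.07. The members also spread less, with a median absolute log2 change of 0.19 for shRNA-146 against control, beside 0.28 over all genes.

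Within replicate numbers the medians of the single shRNAs varied in sign. For shRNA-146 against control, KRAB members had a median log2 ratio of 0.04 for number 1, −0.20 for number 2 and −0.22 for number 3. Members without KRAB had −0.39, −0.07 and 0.18 for the same numbers, and other chromosome 19 coding genes −0.43, 0.00 and 0.10. For shRNA-143 against control, KRAB members had −0.18, −0.01 and 0.06. The sign of the KRAB members' median thus differed between replicate numbers in both comparisons. For the mean of both shRNAs it was the same in all 3, at −0.07, −0.10 and −0.08 for the KRAB members and −0.08, −0.08 and −0.06 for all 203, while the median over all genes was 0.00, 0.00 and −0.01. The members without KRAB had −0.30, −0.05 and 0.21 in that comparison. The part of GC content and of the libraries numbered 1 in it was not tested beyond the fits given here.

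Members whose libraries did not overlap between groups were also counted. In shRNA-146 cells 17 members were below and 6 above every control library, against 7.46% and 7.25% of all genes. In shRNA-143 cells 14 were below and 4 above, against 8.11% and 7.09%. In both knockdown groups together 6 were below and 3 above, against 2.77% and 3.08%. Of 203 members, 17 is near the background share for lower genes, and the counts above control fall under it.

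**Figure D5:**
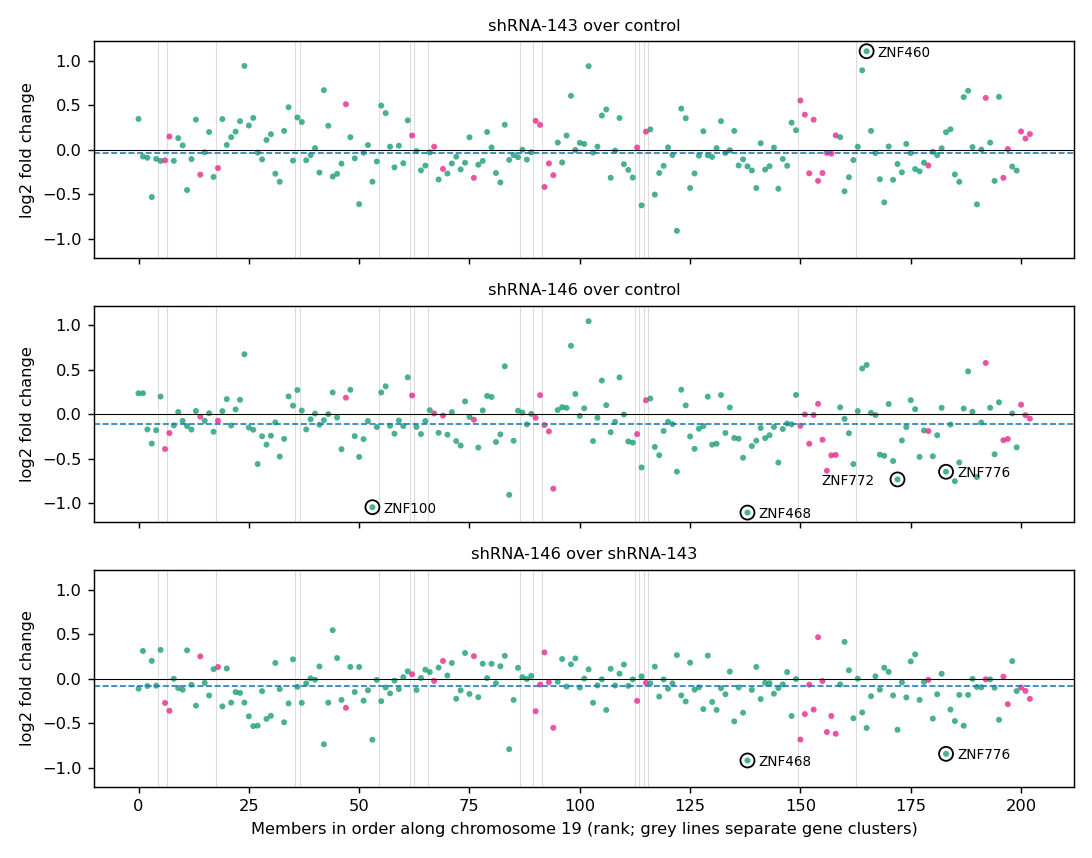
Log2 fold change with the replicate block for the 203 tested members in their order along chromosome 19, with KRAB members in green, members without KRAB in pink, called members circled and the members' median as a dashed line. The circled genes ZNF100, ZNF468, ZNF772 and ZNF776 lie below 0 in the middle panel. In that panel the cluster at 51571298 to 53580269 has a median of −0.20. The clusters at 55476332 to 56626481 and 57191500 to 58481230 have −0.21 and −0.10. ZNF772 and ZNF776 are in the same cluster.

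By position, the cluster at 51571298 to 53580269, which holds ZNF468 and ZNF614, had a median log2 change of −0.20 over 34 tested members in shRNA-146 cells, without the block, and the 40 tested members of the cluster at 57191500 to 58481230 had −0.10. The GC-rich cluster at 55476332 to 56626481 had −0.24 over 13 members without the block and −0.21 with it. Without shRNA-146 replicate 1 and with the block, these 3 clusters had −0.37, −0.17 and −0.06, so the value of the GC-rich cluster rested on that library. ZNF787 of that cluster had 65.6, 76.6 and 81.0 CPM in shRNA-143 cells, 22.8, 77.9 and 84.7 CPM in shRNA-146 cells and 62.5, 81.9 and 89.1 CPM in control cells. One shRNA-146 library is far below the rest and the groups otherwise overlap. Its log2 change in shRNA-146 cells was −0.33 ± 0.41 without the block (adjusted p = 0.880), −0.46 ± 0.27 with it (adjusted p = 0.329) and −0.04 ± 0.11 with it and without that library (adjusted p = 0.819).

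Members with described roles gave no call with 9 libraries. ZNF274 had 12.9, 23.8 and 30.5 CPM in shRNA-143 cells, 16.1, 23.6 and 24.7 CPM in shRNA-146 cells and 14.8, 23.6 and 23.1 CPM in control cells, so the replicate number separated the values and the groups overlapped. ZNF93 had 18.7, 24.8 and 22.1 CPM in shRNA-143 cells, 28.2, 25.9 and 18.3 CPM in shRNA-146 cells and 24.6, 25.8 and 27.6 CPM in control cells, again with overlap. For the average of both shRNAs without the block, the log2 changes of ZNF274, ZNF91, ZNF93, ZNF160, ZNF675, ZNF175, ZNF224, ZNF350 and ZNF473 lay between −0.18 and 0.22, with SEs of 0.18 to 0.32. ZNF587 had the largest value of the role group at 0.80 ± 0.71 (adjusted p = 0.795), and 0.57 with the block (adjusted p = 0.226). Without the 3 libraries numbered 1 and with the block it passed as higher for each shRNA (edgeR). Its log2 changes there were 0.99 ± 0.25 in shRNA-143 cells and 0.88 ± 0.25 in shRNA-146 cells (adjusted p = 0.0375 and 0.0463). ZNF649, described as a repressor of serum response element activity, had −0.36 ± 0.17 (adjusted p = 0.551), and its log2 change in shRNA-146 cells without shRNA-146 replicate 1 and with the block was −0.59 ± 0.14 (adjusted p = 0.0287). A p above the threshold does not show that these genes were unchanged.

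The partners of KRAB proteins were examined as a list of 21 genes covering the TRIM28 corepressor complex and the HUSH silencing complex. All 21 were tested and 0 passed in any comparison with control, with or without the block (edgeR); at an unadjusted p under 0.05 the mean of both shRNAs gave 0 without the block and 6 with it, against 9.34% and 25.6% of all genes. TRIM28 averaged 634 CPM in shRNA-143 cells, 625 CPM in shRNA-146 cells and 709 CPM in control cells, a log2 change of −0.19 ± 0.11 with the block (adjusted p = 0.311). SETDB1 averaged 39.8 CPM in shRNA-143 cells, 34.0 CPM in shRNA-146 cells and 30.7 CPM in control cells (log2 0.27 ± 0.14, adjusted p = 0.263). MPHOSPH8, a HUSH subunit that reads methylated H3K9, averaged 14.5 CPM in shRNA-143 cells, 14.5 CPM in shRNA-146 cells and 9.28 CPM in control cells (log2 0.44 ± 0.22, adjusted p = 0.233). The list's median log2 change was 0.03 with the block, beside 0.01 over all genes.

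NFAT proteins bind DNA at a GGAAA core, so the 250 bases before the RefSeq start (GRCh38.p14) of the 5 called members are shown, with each GGAAA or its reverse complement TTTCC in capitals. For ZNF468 the RefSeq start is at 52857619, inside the span the annotation gives above and close to the start of ZNF28. Other starts of ZNF468 were not examined.
ZNF468, chr19:52857620-52857869, minus strand: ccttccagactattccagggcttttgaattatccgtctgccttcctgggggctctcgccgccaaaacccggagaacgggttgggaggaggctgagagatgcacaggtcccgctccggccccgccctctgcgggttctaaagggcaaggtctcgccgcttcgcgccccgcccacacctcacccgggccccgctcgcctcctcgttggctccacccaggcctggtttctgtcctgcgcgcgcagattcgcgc
ZNF100, chr19:21767580-21767829, minus strand: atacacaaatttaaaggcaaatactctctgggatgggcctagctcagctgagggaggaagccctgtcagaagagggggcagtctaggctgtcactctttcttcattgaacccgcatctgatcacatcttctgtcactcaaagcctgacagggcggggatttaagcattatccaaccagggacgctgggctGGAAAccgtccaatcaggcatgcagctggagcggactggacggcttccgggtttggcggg
ZNF772, chr19:57477567-57477816, minus strand: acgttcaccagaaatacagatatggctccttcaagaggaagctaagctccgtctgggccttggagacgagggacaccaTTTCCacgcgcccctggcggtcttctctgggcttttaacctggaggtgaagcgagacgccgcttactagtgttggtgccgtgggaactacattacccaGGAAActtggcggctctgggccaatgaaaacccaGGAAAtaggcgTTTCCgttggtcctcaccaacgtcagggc
ZNF776, chr19:57746565-57746814, plus strand: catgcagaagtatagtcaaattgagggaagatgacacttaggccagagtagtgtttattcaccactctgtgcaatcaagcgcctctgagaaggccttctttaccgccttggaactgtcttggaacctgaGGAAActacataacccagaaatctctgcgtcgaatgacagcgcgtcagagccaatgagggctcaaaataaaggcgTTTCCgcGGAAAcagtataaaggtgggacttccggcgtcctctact
ZNF460, chr19:57279732-57279981, plus strand: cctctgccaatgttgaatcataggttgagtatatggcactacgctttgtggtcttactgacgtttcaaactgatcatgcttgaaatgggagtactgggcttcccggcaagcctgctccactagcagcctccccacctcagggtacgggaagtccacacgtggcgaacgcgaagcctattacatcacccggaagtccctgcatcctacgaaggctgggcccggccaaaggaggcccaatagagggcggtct
On both strands, ZNF772 holds 4 matches, ZNF776 3, ZNF100 1, and ZNF468 and ZNF460 0 in this window. A match was present in 63.7% of the 201 members found in the promoter table and in 56.0% of its 27305 genes. CGCG, which is its own reverse complement, was present in 66.2% of members and 46.1% of all genes. A match is only a string of letters, and no match says only that these letters are not in this window.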

How the data were processed

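RNA sequencing of 9 THP-1 libraries was analysed from the count table in which the authors deposited raw read counts per gene, 58735 genes. Per the submitters' processing notes, fastp, STAR 2.5, featureCounts and DESeq2 were used with the hg38 build, with no stated role, parameters or strand setting. The authors' deposited comparison tables also hold signal values (counts divided by 1 size factor per library), FPKM, log2 fold changes and p-values. Signal and FPKM columns deposited by the authors were not used for tests.

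Genes were filtered with filterByExpr (14975 kept) and fitted with the robust quasi-likelihood test of edgeR 4.0.16 after TMM scaling over all 9 libraries, R 4.3.3, with Benjamini-Hochberg adjustment over all genes and a threshold of 0.05. DESeq2 1.42.0, limma-voom 3.58.1, other scalings and filters, a length and GC correction (mgcv 1.9.3), and left-out libraries were alternatives. Fits were tested on simulated counts. CPM are TMM-normalised, and CPM per kilobase uses the deposited gene length. Deviations and ratios within a number are of log2(CPM + 0.5).

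Libraries of the same number deviated together in 9 of 9 pairs (r 0.252 to 0.758, against −0.678 to 0.535 for different numbers), so the number was also fitted as a block. The sources used here do not say what a number stands for.

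KRAB A-boxes were scored on translated GENCODE 29 coding sequence with a 40-residue profile (threshold 25 bits), and fingers by their cysteine and histidine spacing. Named members were those passing with the block, the 8 highest in control and a list with described roles. The members and lists were chosen with earlier results of these data known.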

Additional observations from a re-analysis of the deposited data

Results flagged for a closer look

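The effects of the 2 shRNAs on 2 members differed by a direct test. ZNF468 was lower in shRNA-146 cells than in shRNA-143 cells by a log2 difference of −0.92 (edgeR with the replicate block, adjusted p = 0.0305), and ZNF776 by −0.85 (adjusted p = 0.0319). Without the block the differences were −0.92 and −0.85 with adjusted p of 0.495 and 0.378. Each stood lower in 3 of 3 shRNA-146 libraries than in any shRNA-143 library. The share of all genes separated in this way between the shRNAs was not counted. Both members were named because they passed this comparison, so the separation is not independent support. NFATC2 differed between the same groups by 0.31 ± 0.23 on the log2 scale (adjusted p = 0.713).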

How the results depend on the processing

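The counts of members called changed with the replicate block, the libraries included, the filter and the length and GC correction. Without the block, 0 members passed in any comparison (edgeR) under every scaling, under the filter on a summed count of at least 1, under limma-voom and with any 1 library left out, and DESeq2 gave 2 for shRNA-146 against control and 2 for shRNA-146 against shRNA-143. For shRNA-143 against control the block gave 1 member with TMM, library size, median-of-ratios and upper quartile scaling and with limma-voom, 4 with DESeq2, 5 with the summed count filter, 14 with only shRNA-143 and control libraries and 6 with the length and GC correction. For shRNA-146 against control it gave 4 with TMM, 3 with library size, 3 with median-of-ratios, 4 with upper quartile, 4 with limma-voom, 8 with DESeq2, 9 with the summed count filter, 2 with only shRNA-146 and control libraries and 14 with the length and GC correction. For the mean of both it gave 3, 1, 3 and 6 with these 4 scalings in that order, 3 with limma-voom, 8 with DESeq2, 10 with the summed count filter and 14 with the length and GC correction. For shRNA-146 against shRNA-143 it gave 2, 1, 2 and 2 with the scalings, 2 with limma-voom, 4 with DESeq2, 5 with the summed count filter and 5 with the length and GC correction. With 1 library left out and the block, the counts ran over 0 to 7 for shRNA-143, 0 to 18 for shRNA-146, 0 to 26 for the mean of both and 0 to 5 for shRNA-146 against shRNA-143, and each highest count came without shRNA-146 replicate 1. Leaving out the 3 libraries numbered 1, chosen after seeing the data, gave 6, 18, 15 and 6 in the same order with the block. The shares of all genes there were 10.4%, 13.9%, 19.1% and 2.1%. The same libraries without the block gave 1, 8, 7 and 3, against 3.89%, 6.28%, 10.1% and 1.06% of all genes. Over all genes, the shares called with the block for shRNA-143, shRNA-146, the mean of both and shRNA-146 against shRNA-143 were 6.68%, 9.35%, 11% and 2.5% with DESeq2, 4.5%, 5.99%, 7.06% and 1.58% with the summed count filter and 9.95%, 11.4%, 15% and 3.77% with the length and GC correction. They were 19.4% for shRNA-143 and 1.5% for shRNA-146 with only those and control libraries, and 1.17% to 6.19% with the other scalings and limma-voom. The 14 members that passed with only shRNA-143 and control libraries were 6.93% of those tested. Why the counts move was not tested.

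The members' median log2 change moved as well. For shRNA-146 it was 0.052 with library size scaling, against −0.080 with TMM. For the mean of both it was −0.05 with TMM and −0.064 with the block, and without the block it was 0.069 with library size scaling, −0.082 with upper quartile scaling, −0.068 with limma-voom, −0.064 with the summed count filter and −0.067 without the libraries numbered 1. With the block these were 0.054, −0.090, −0.067, −0.087 and −0.066, and −0.13 with the length and GC correction. With 1 library left out, the median for the mean of both ran over −0.12 to −0.013 with the block (−0.090 without control replicate 2) and −0.14 to 0.0089 without it, that for shRNA-146 over −0.19 to −0.051 and −0.17 to −0.016, that for shRNA-143 over −0.11 to 0.065 and −0.10 to 0.075, and that for shRNA-146 against shRNA-143 over −0.19 to 0.0025 and −0.21 to −0.0054.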
